A study of Mus musculus with 33 samples.

Results

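Genes that detect foreign or misplaced nucleic acid, or pass that signal on, were followed in bone marrow (BM) RNA of mice treated with venetoclax or ruxolitinib: Oas2, Oas3, Oasl1, Ifih1, Ddx58, Zbp1, Mavs and Tmem173. They were selected by name, and they make up 8 of the 750 endogenous probes of the panel. They were chosen with the values of ruxolitinib-treated mice on day 1 already known, so every value of that day and drug, and every contrast that contains it, is given here as a description. Fold changes with their SE stand for those contrasts, with no p-value. Counts of calls in them are printed with the calls over all genes, there or under the processing. Where leaving out a mouse leaves 1 in its group, fold changes are given for them without counts. Nothing is read from those counts. All 8 were on the panel, and all 8 were among the 655 genes that exceeded background in 2 or more lanes and were therefore tested.

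The samples came from 33 female C57BL/6 mice of 6 to 8 weeks, with 1 lane of the NanoString nCounter assay per mouse. In this assay colour-coded barcodes are counted directly on each RNA without amplification. Venetoclax, an inhibitor of BCL2, was given by gavage once daily for 2 days (100 mg/ml in the series text), and ruxolitinib, an inhibitor of the kinases JAK1 and JAK2, was given 2 times daily for 2 days (180 mg/ml). BM was taken on days 1, 3 and 7 post-treatment from 3 drug-treated mice and 2 vehicle-treated mice per drug and day, and 3 further mice were left untreated. The vehicle of venetoclax was phosal 50 PG with PEG 400 and ethanol, and that of ruxolitinib was DMSO with PEG 300 and water. The labels name no altered allele in any group, and each lane held the RNA of a single mouse. The 11 lanes of each day shared a run, with 1 untreated mouse in it, so day and run cannot be told apart.

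Oligoadenylate synthetases make short chains of linked adenosines when they bind double-stranded RNA, and those chains switch on an RNA-degrading enzyme. RIG-I (encoded by Ddx58) and MDA5 (Ifih1) are helicases that bind viral RNA and signal through the mitochondrial adaptor MAVS, whereas STING (Tmem173) relays the signal of cytosolic DNA. Both routes induce type I interferon, whose receptor signals through JAK1 and TYK2, and several of the sensors are themselves interferon-induced genes. ZBP1 recognises nucleic acid in the left-handed Z form and can start necroptosis.

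The total of endogenous counts per lane ranged from 18056 to 466096 (median 158944), and 2 lanes had fewer than 30000 counts: replicate 1 of venetoclax on day 1 and replicate 1 of ruxolitinib on day 3. Values of those 2 mice rest on few counts, down to 1 raw count for Tmem173. S100a8, a neutrophil gene, was the most abundant gene in all 33 lanes, and marker genes of B cells, T cells and neutrophils were detected, as is usual of BM. Levels below are barcode counts after scaling by 11 housekeeping probes ("normalised count"). Probes differ in efficiency, so levels are compared between mice and not between genes. In bulk RNA, fewer cells of a type and less RNA per cell cannot be told apart.

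The OAS genes were detected: Oas2 was above background in 33 lanes, Oas3 in 29 and Oasl1 in 25. Of the sensors, Ddx58 was above background in 33 lanes, Zbp1 in 32 and Ifih1 in 30, and of the adaptors, Mavs in 31 and Tmem173 in 30. The median normalised count over all mice lay between 11.4 for Oasl1 and 47.0 for Ddx58.

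Upstream sequence of 5 members was found in the RefSeq promoter table of build GRCm38.p6, which holds 250 bases before and 50 after a start site. The stretches below are shown because Oas3 and Ifih1 were low in ruxolitinib-treated mice on day 1, while the fold changes of Ddx58 and Mavs lay nearer 0. They are written 5′ to 3′ along the gene, and capitals mark a match to GAAANNGAAA or GAAANGAAA, which are spaced pairs of the GAAA core that interferon-stimulated response elements share. Both letter patterns were searched on both strands, and the second was added after the sequences were seen.
Oas3, chr5:120777705-120777754, minus strand, 95 to 46 bases upstream: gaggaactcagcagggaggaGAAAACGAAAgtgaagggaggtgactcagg
Oas3, chr5:120777637-120777666, minus strand, across the start site: gccctggagaGAAACGAAActctactgaga
Ifih1, chr2:62646206-62646235, minus strand, past the start site: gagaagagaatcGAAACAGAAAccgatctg
Ddx58, chr4:40239856-40239905, minus strand, 80 to 31 bases upstream: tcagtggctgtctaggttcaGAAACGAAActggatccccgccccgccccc
Ddx58, chr4:40239804-40239833, minus strand, across the start site: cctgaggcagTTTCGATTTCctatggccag
Mavs, chr2:131233963-131234062, plus strand, 100 bases upstream without a match: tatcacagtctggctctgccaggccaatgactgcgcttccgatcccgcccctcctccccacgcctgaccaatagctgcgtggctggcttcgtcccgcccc
Oas3 and Ddx58 each held 1 match to each pattern, Ifih1 held 1 match to GAAANNGAAA, and no match was found in the windows of Oasl1 and Mavs. Oasl1 was also among the low members on that day, but its window is not printed because another annotated start of the gene lies upstream in it. No window was found for Oas2 and Zbp1, which were low as well. Whether the low members share a match can therefore not be told from these windows. Of all 32851 windows in the table, 3.44% held GAAANNGAAA, 3.17% held GAAANGAAA, and 6.27% held at least 1 of them. A match to these letters is a description of the window and not a binding site.

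Oas2 had the clearest pattern of the OAS genes. On day 1 its normalised counts were 11.3, 7.92 and 12 in the 3 ruxolitinib-treated mice, against 44 and 45.9 in the 2 vehicle-treated mice. The 3 ruxolitinib-treated mice lay below every one of the other 30 mice, whose lowest value was 22.2. The log2 fold change was −2.10 ± 0.31 (SE, n = 3 and 2), or a level of 0.232 times the vehicle level.
Venetoclax-treated mice of the same day had 66.6, 63.5 and 25.5, against 55.0 and 53.4 with their vehicle. Those groups overlapped, with a log2 fold change of −0.06 ± 0.31 (95% confidence interval −0.68 to 0.57).

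Oas3 and Oasl1 were also at their lowest group mean in ruxolitinib-treated mice on day 1. Oas3, the synthetase with the longest protein of the family, measured 7.53, 9.05 and 11.5 against 21.1 and 26.4 with vehicle. Its log2 fold change was −1.36 ± 0.32, and −0.79 with untreated mice as the control. Oasl1, an OAS-like protein without synthetase activity that represses translation of Irf7 mRNA, measured 6.28, 2.83 and 3.28 against 11.9 and 21.2 (−2.10 ± 0.42). Neither pair of groups overlapped. The Oasl1 values correspond to raw counts of 10, 5 and 6, and 1 of the 3 lanes was above background, so the level in the other 2 lanes is not distinguished from background. With venetoclax on that day, Oas3 measured 33.3, 24.9 and 14.8 against 15.1 and 20.7, and Oasl1 measured 11.1, 20.6 and 8.48 against 10.8 and 23.9, and both overlapped with vehicle.

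**Figure D1:**
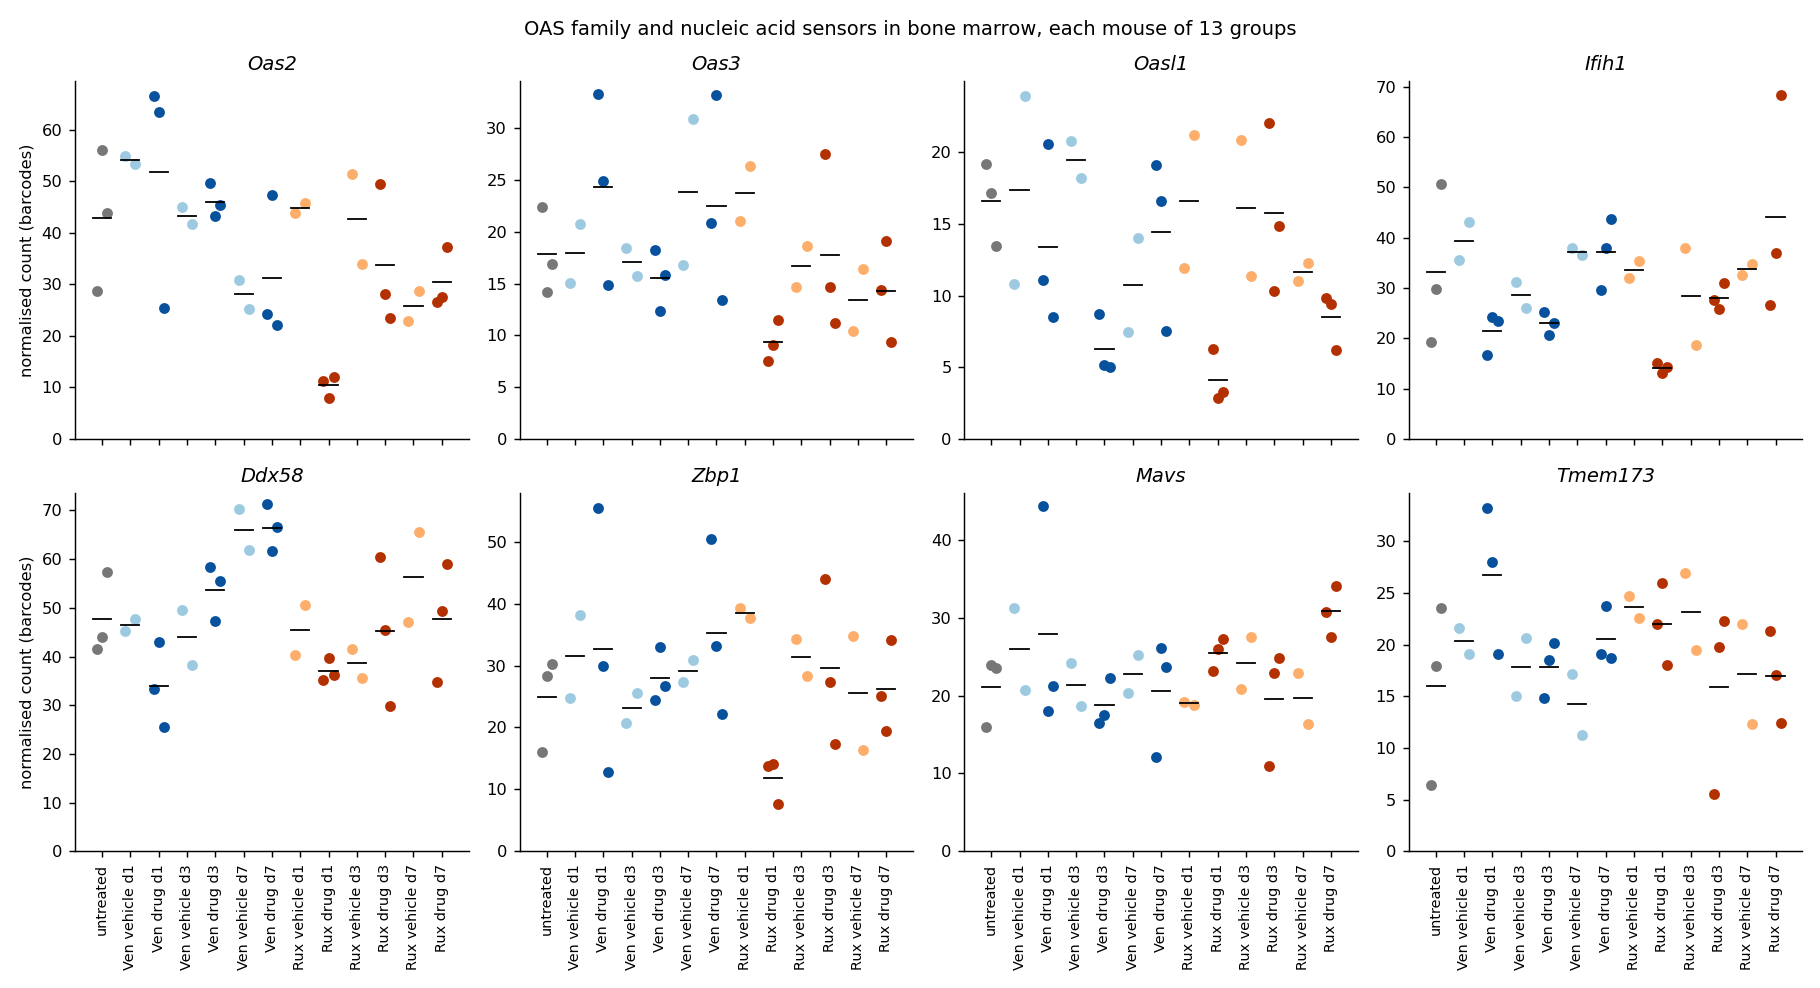
Normalised counts (vertical axis, barcodes, from 0) of each member in each mouse (points) of the 13 groups, with group means as bars: grey untreated, light and dark blue vehicle and drug of venetoclax, light and dark orange vehicle and drug of ruxolitinib, by day. Ruxolitinib day 1 has the lowest group mean for Oas2, Oas3, Oasl1, Ifih1 and Zbp1, and venetoclax day 3 is the second lowest for Oasl1.

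The helicases are given side by side for day 1, and the difference between them was not tested. Ifih1 measured 15.1, 13 and 14.2 with ruxolitinib against 32.1 and 35.3 with vehicle (log2 fold change −1.26 ± 0.29), and those 3 mice lay below all 30 others. Ddx58, the other RNA helicase that signals through MAVS, measured 35.1, 39.6 and 36.1 against 40.3 and 50.7 (−0.32 ± 0.24). Its drug group lay below the vehicle group without overlap, but other groups reached lower, with 25.5 in 1 venetoclax-treated mouse of day 1.
Zbp1, the Z-nucleic acid sensor, measured 13.8, 14.1 and 7.66 against 39.4 and 37.7 (−1.69 ± 0.35, or −1.14 with untreated mice as the control). One venetoclax-treated mouse of day 1, at 12.7, lay within that low range, while the others of its group had 55.5 and 29.9.

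The adaptors did not share the low level. Mavs, which gathers the helicases' signal on mitochondria, measured 23.2, 26 and 27.3 with ruxolitinib on day 1 against 19.2 and 18.8 with vehicle, so the drug group was the higher one (0.43 ± 0.27). Tmem173 measured 22, 26 and 18.1 against 24.7 and 22.6 (−0.09 ± 0.27), its groups overlapped, and the sign of the value depended on scaling, control and single mice. Ordered over all 13 groups from the lowest mean, ruxolitinib day 1 came 10 of 13 for Mavs and for Tmem173. For both adaptors the highest group mean was less than 2 times the lowest, at 1.64 times for Mavs and 1.89 times for Tmem173. The same held for the sensor Ddx58, at 1.96 times. For Oas2, whose lowest group was ruxolitinib day 1, it was 5.20 times.

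For orientation, 5 of the 8 members lay under an adjusted p-value of 0.05 in edgeR's quasi-likelihood fit of day 1 of ruxolitinib, all lower (Oas2, Oas3, Oasl1, Ifih1 and Zbp1). Over all genes tested, 2.75% were called in that contrast and 1.98% were called lower. The groups did not overlap for 7 of the 8 members, against 44% of all genes. These counts come from the contrast known when the members were chosen, and nothing is read from them. With limma on log2 values the count was 1 (Oas2), beside 5 of the 655 genes. Leaving out the deeper of the 2 vehicle-treated mice (replicate 2) leaves 1 vehicle mouse, so fold changes alone are given. They were −2.07 for Oas2, −1.15 for Oas3, −1.53 for Oasl1, −1.18 for Ifih1 and −1.73 for Zbp1.

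**Figure D2:**
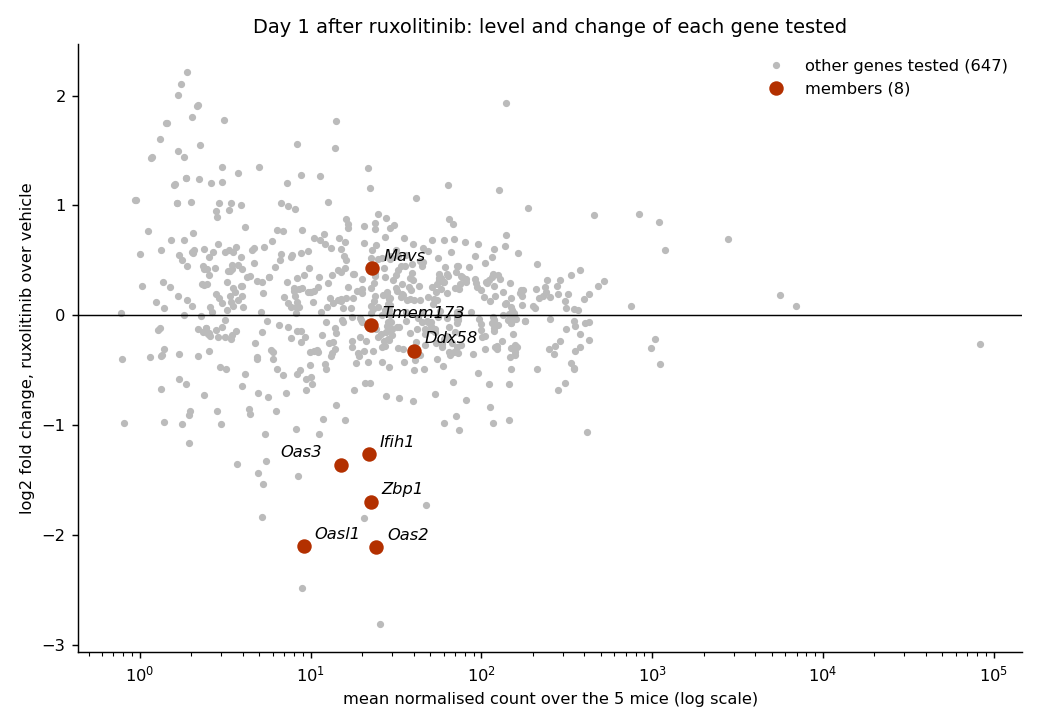
Each of the 655 genes tested by its mean normalised count over the 3 ruxolitinib-treated and 2 vehicle-treated mice of day 1 (horizontal, log scale) and its log2 fold change (vertical), with the 8 members in red. Of the members, 5 lie between −1.26 and −2.10 and the other 3 between −0.32 and 0.43.

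By day 3 the ruxolitinib and vehicle groups overlapped for every member. Oas2 measured 49.5, 28.1 and 23.6 against 51.4 and 34.1, with a log2 fold change of −0.53 ± 0.33 (95% interval −1.20 to 0.13, adjusted p = 0.998), the lowest of the 8. The highest was Ddx58 at 0.13 ± 0.27, with 60.5, 45.5 and 29.8 against 41.6 and 35.7, and its sign turned with untreated mice as the control (−0.15) and without replicate 2 of the drug (−0.011). None of the 8 was called, where 0.153% of all genes were, and none separated without overlap, where 15.6% of all genes did. The shallow mouse of this group gave the highest value of the group for Oas2, Oas3, Oasl1, Ddx58 and Zbp1 and the lowest for Mavs (11) and Tmem173 (5.50). In that mouse Oas3, Oasl1, Ifih1, Mavs and Tmem173 were not above background, on raw counts of 5, 4, 5, 2 and 1. Without the 2 shallow lanes the value of Oas2 was −0.67 ± 0.33 (adjusted p = 0.849), and it ran from −0.23 without replicate 1 of the vehicle to −0.83 without replicate 2 of it.
Oasl1 measured 22, 10.3 and 14.9 against 20.8 and 11.4, Zbp1 measured 44, 27.3 and 17.4 against 34.3 and 28.4, and Ifih1 measured 27.5, 25.7 and 31 against 38 and 18.7. All mice lay in the vehicle range for Ifih1 and 1 of 3 for Oasl1, while for Zbp1 the drug-treated mice lay on both sides of it. The values of 27.5 for Ifih1 and 22 for Oasl1 are those of the shallow mouse and were not above background.

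On day 7 no member was called after ruxolitinib, where 0.153% of all genes were. Log2 fold changes ran from −0.32 ± 0.35 for Zbp1 (25, 19.4 and 34.2 against 34.8 and 16.4) to 0.49 ± 0.28 for Mavs (30.8, 27.6 and 34.2 against 22.9 and 16.4). The group means of Zbp1 were 26.2 and 25.6, and its sign turned in limma (0.088), in limma after background subtraction (0.20) and without replicate 1 of the vehicle (0.52). The value of Mavs ran from 0.38 without replicate 2 of the vehicle to 0.86 without replicate 1 of it. Mavs was 1 of 2 members whose groups did not overlap (adjusted p = 0.999), where 17.7% of all genes did not. The other was Oasl1, at 9.84, 9.40 and 6.21 against 11 and 12.3, with the value of 6.21 not above background (raw count 2). Oas2, with 26.7, 27.6 and 37.3, lay in the range of its vehicle group (22.9 and 28.7) in 2 of 3 mice. Ifih1 reached its highest value of all 33 mice here, 68.3 in 1 mouse, beside 26.7 and 37.0.

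The change at the later days was set against that of day 1. For the mean of days 3 and 7 minus day 1, Oas2 gave a log2 difference of 1.95 ± 0.39, Oasl1 1.82 ± 0.52, Oas3 1.49 ± 0.42, Zbp1 1.40 ± 0.44 and Ifih1 1.36 ± 0.37. With untreated mice as the control the value of Oas3 was 0.70. Without replicate 2 of the day 1 vehicle that of Oasl1 was 1.25. Of the members, 3 (Oas2, Oas3 and Ifih1) were called in that contrast, where 2.44% of all genes were. Of 13 other processing choices, Oas2 was called in 12, Ifih1 in 9 and Oas3 in 3. Without replicate 2 or replicate 3 of the drug on day 1, 1 member was called, beside 10 and 12 of the 655 genes. The contrast contains the day 1 values used in the choice, so nothing is read from these counts. It also compares runs through vehicle-corrected differences. For the mean of days 3 and 7 on its own no member was called, where 0.153% of genes were, and the 8 log2 fold changes lay between −0.29 and 0.18.

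**Figure D3:**
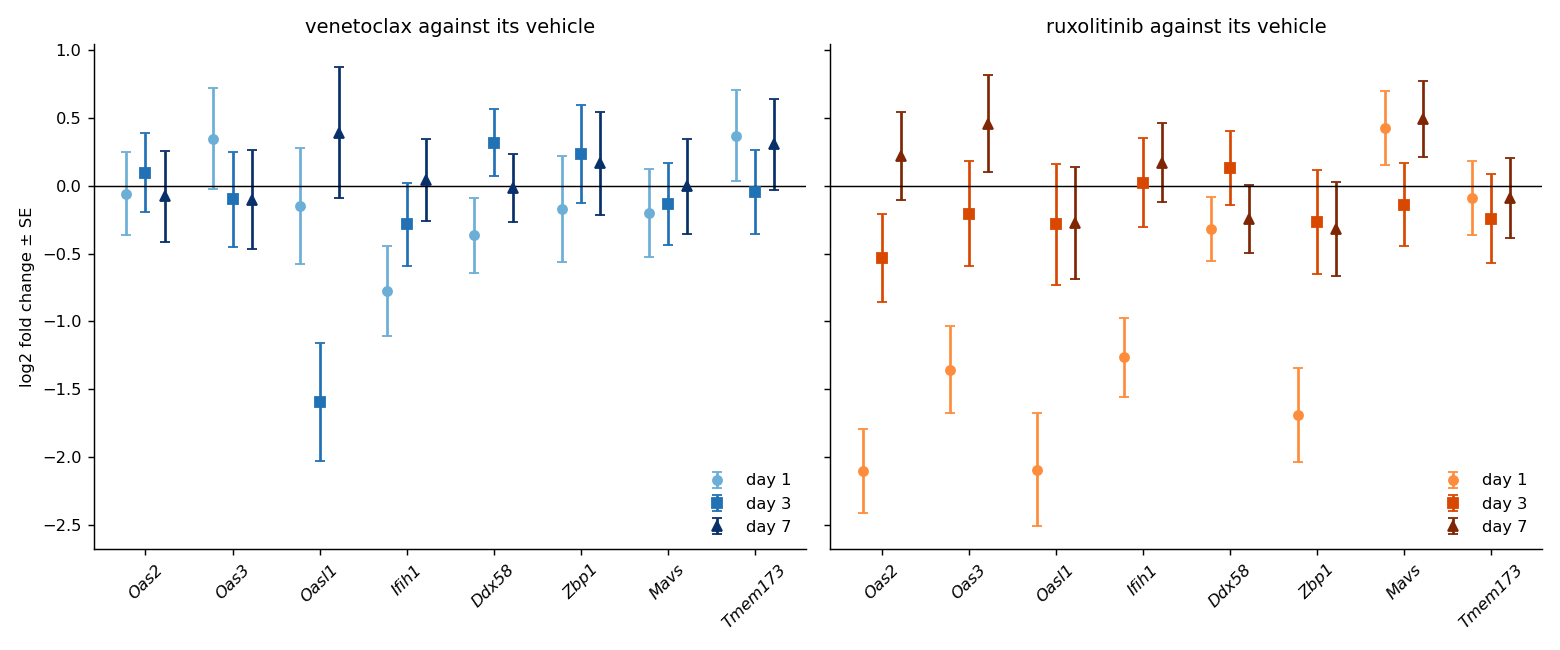
Log2 fold change against the vehicle of the same day, with SE as error bars, for each member after venetoclax (left) and ruxolitinib (right) on days 1, 3 and 7. The low values of ruxolitinib are those of day 1 for 5 members, and the lowest value of venetoclax is Oasl1 on day 3 at −1.60.

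Venetoclax gave no called member on any day. On day 1 the lowest was Ifih1, with 16.6, 24.3 and 23.3 against 35.6 and 43 with vehicle, a log2 fold change of −0.78 ± 0.33 (95% interval −1.45 to −0.10, adjusted p = 0.353). Its groups did not overlap, and the same held for Ddx58 (33.3, 43 and 25.5 against 45.3 and 47.8), so 2 of 8 members separated where 27.5% of all genes did. The highest was Tmem173 at 0.37 ± 0.33. On that day 0.153% of all genes were called. Of the plasmacytoid dendritic cell markers 4 of 4 were below 0 (median log2 fold change −0.57), and of the T cell markers 6 of 7 (median −0.28). None of either was called, and the summed levels of both overlapped with vehicle. Their part in the Ifih1 and Ddx58 values was not tested.
The mouse with 18056 counts gave the highest value of its group for Oas2, Oas3, Zbp1, Mavs (44.4) and Tmem173 (33.3), and the lowest for Ifih1. In that mouse Ifih1 and Oasl1 were not above background, on raw counts of 3 and 2. Without the 2 shallow lanes the value of Ifih1 was −0.72 ± 0.35 (adjusted p = 0.439). Over the alternatives it ran from −1.43, in limma after background subtraction, to −0.47, with untreated mice as the control.

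On day 3 of venetoclax Oasl1 stood apart. It measured 8.71, 5.15 and 5.04, against 20.8 and 18.2 with vehicle and 19.2, 17.2 and 13.5 in untreated mice. The log2 fold change was −1.60 ± 0.43 (95% interval −2.48 to −0.71), and the adjusted p-value of 0.109 did not pass the threshold. It stayed between −1.99 and −1.40 under the other processing choices, with adjusted p-values from 0.0716 to 0.951, the highest without replicate 1 of the vehicle. All 3 lanes with the drug were above background, on raw counts of 10, 5 and 7, while the untreated mice at 19.2 and 13.5 were not. Oas2, its relative with synthetase activity, measured 49.6, 43.3 and 45.4 against 45 and 41.7 in the same mice, and Oas3 measured 18.3, 12.4 and 15.8 against 18.4 and 15.7. The highest member was Ddx58 (58.3, 47.4 and 55.4 against 49.6 and 38.3, 0.32 ± 0.25). Over all genes 0.0% were called on that day, 70 genes had an unadjusted p-value under 0.05, and 26.1% did not overlap, as 2 of the 8 members did not (Oasl1 and Ifih1).
T cell markers were low in the same mice: the summed level of the 7 markers was 35.7 to 46.3 against 75.6 to 103.8 with vehicle, all 7 had a log2 fold change below 0, and none was called. Of the 7 neutrophil markers 2 were below 0, with a median log2 fold change of 0.84 and none called, while their summed level of 88065 to 113289 overlapped that with vehicle, 95496 to 109097. On day 7 of venetoclax all 7 T cell markers were below 0 as well. Whether T cell or neutrophil markers have a part in the Oasl1 value was not tested.

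By day 7 the venetoclax values lay close to vehicle, from −0.10 ± 0.36 for Oas3 (20.8, 33.2 and 13.4 against 16.8 and 30.9) to 0.39 ± 0.48 for Oasl1 (19.1, 16.6 and 7.49 against 7.42 and 14). The sign of both depended on the choice of control and on single mice. None was called, as against 0.153% of all genes. The groups of Tmem173 (19.1, 23.7 and 18.7 against 17.2 and 11.2) did not overlap, 1 of 8 members beside 17.3% of all genes. T cell markers summed to 40.9 to 68.8 against 81.3 to 134.8 with vehicle, with 7 of 7 below 0 and 0 called. Of the 7 B lineage markers 4 were below 0 and 1 was called. Their part in the Tmem173 value was not tested. Averaged over days 1, 3 and 7, where 2.90% of genes were called, all of them lower, no member was called after venetoclax.

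For the 7 drug and vehicle contrasts that contain no ruxolitinib value of day 1 (days 3 and 7 of ruxolitinib, their mean, days 1, 3 and 7 of venetoclax and their mean), DESeq2 and limma called no member either. At an unadjusted p-value under 0.05 edgeR gave 1 member on day 1 of venetoclax (Ifih1), 1 on day 3 (Oasl1) and 0 in the other 5. Of all 655 genes, 68 had such a p-value on day 1 of venetoclax and 70 on day 3, and 23 to 60 in the other 5.

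The drugs were then compared through the difference of their changes. On day 1 the change with venetoclax was higher than that with ruxolitinib by 2.05 ± 0.44 on the log2 scale for Oas2, 1.95 ± 0.60 for Oasl1, 1.71 ± 0.49 for Oas3 and 1.52 ± 0.53 for Zbp1. The value of Oasl1 was 1.15 without replicate 2 of venetoclax and 2.67 without replicate 2 of the venetoclax vehicle. Oas2 was the only member called, where 1.68% of all genes were, and nothing is read from that count, since the contrast again contains the values known at the choice. Leaving out replicate 2 of venetoclax gives 0 called members, beside 3 of the 655 genes. The value of Oas2 ran from 1.64 to 2.35 without single mice. On day 3 the largest difference was that of Oasl1, in the other direction (−1.31 ± 0.62, 95% interval −2.58 to −0.04, adjusted p = 0.999). No member was called on that day by edgeR, DESeq2 or limma, and 0.153% of all genes were called by edgeR. Its unadjusted p-value was under 0.05 for 1 member (Oasl1) and for 20 of all genes tested. On day 7 0.305% of all genes were called and again no member, and the 8 differences lay between −0.56 and 0.67.

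The vehicles showed no called member. Against untreated mice, the mean of the 6 vehicle groups differed by −0.27 ± 0.24 for Oas2 at the lowest and 0.25 ± 0.28 for Tmem173 at the highest, with 0.0% of all genes called and 75 at an unadjusted p-value under 0.05. Between the vehicles, ruxolitinib's against venetoclax's, 0.0% of genes were called and 18 had an unadjusted p-value under 0.05, and the members lay between −0.19 and 0.27. No member reached an unadjusted p-value under 0.05 in either comparison, and DESeq2 and limma called none.
Values of untreated mice spread widely: Ifih1 measured 19.2, 29.9 and 50.6, Oas2 measured 28.8, 56.0 and 43.8, and Tmem173 measured 6.40, 17.9 and 23.6. The lowest values of Ifih1 and Tmem173 were not above background, on raw counts of 6 and 2 in the same lane. Each untreated mouse was in another run, so spread between mice and between runs cannot be told apart.
Vehicle-treated mice of both drugs had 49.6 ± 5.46 for Oas2 on day 1, 43.1 ± 7.22 on day 3 and 26.9 ± 3.54 on day 7 (SD, n = 4 each), so that every vehicle-treated mouse of day 7 lay below every one of days 1 and 3. Ddx58 had 46.0 ± 4.40, 41.3 ± 6.03 and 61.2 ± 10.1, so its mean was lower on day 3 than on day 1, as for Oas2, but highest on day 7. Its vehicle-treated mice of day 7 (lowest 47.0) overlapped those of days 1 and 3 (highest 50.7 and 49.6). These differences are between runs as well as days, and the 2 cannot be told apart.

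Other genes of the pathway are described for day 1 of ruxolitinib from lists written with earlier results of these data known, so nothing is read from their counts of calls either, beside 2.75% of all genes called. Of 20 tested genes that sense nucleic acid or relay that signal, such as the Toll-like receptors, Tbk1 and Irf3, none was called (median log2 fold change −0.04). Of 12 genes of interferon receptor signalling, among them Jak1, Tyk2 and Stat2, none was called (median −0.03). Of 23 interferon-induced effector genes, 8 were called lower and 0 higher, beside 1.98% of all genes called lower, with a median of −0.92, against 0.13 over all genes tested.
The 5 with the smallest adjusted p-values were Ifit3 (7.55 against 52.7, log2 fold change −2.81 ± 0.39), Isg15 (3.10 against 17.7, −2.47 ± 0.39), Xaf1 (10.0 against 36.1, −1.84 ± 0.29), Rsad2 (24.4 against 81.1, −1.73 ± 0.28) and Ifi27 (51.7 against 107.4, −1.04 ± 0.21), with group means of normalised counts in brackets. Isg15 was above background in 1 of 3 lanes with the drug and in 2 of 2 with vehicle, so its low level there is poorly measured. Ifit3 binds viral RNA together with its relatives, Isg15 encodes a ubiquitin-like modifier, and Rsad2 encodes viperin. The interferon genes themselves were near background, with Ifnb1 and Ifng above it in 1 lane each, Ifna4 in 4 lanes, Ifna1 in 3, and Ifna2 and Ifnl2 in 0.
On days 3 and 7 of ruxolitinib, and on each single day of venetoclax, none of the genes on these 4 lists was called. Over the mean of the 3 days of venetoclax 1 was, the interferon-induced membrane protein gene Bst2, at −0.51 ± 0.14 (adjusted p = 0.0320). In that contrast 2.90% of all genes were called. There, 7 of 7 T cell markers were below 0 (median log2 fold change −0.69, 2 called). So were 4 of 4 plasmacytoid dendritic cell markers (median −0.49, 0 called). Their part in the Bst2 value was not tested.
In the mean of days 3 and 7 minus day 1 of ruxolitinib, Irf7, the transcription factor whose mRNA Oasl1 represses, differed by 1.63 ± 0.41, and 8 of the 23 effector genes were called higher, beside 2.44% of all genes called in either direction, in a contrast that contains the day 1 values already known.

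Cell markers were compared in the mice of day 1 of ruxolitinib, and none of the marker genes of 7 cell types was called. The summed level of B lineage markers was 583 to 664 against 599 to 603 with vehicle, with 4 of 7 below 0, and that of T cell markers was 72.8 to 77.1 against 65.0 to 66.8, with 2 of 7 below 0. Natural killer cell markers lay at 57.1 to 63.4 against 75.1 to 88.7, with 5 of 6 below 0, and plasmacytoid dendritic cell markers lay at 169 to 176 against 153 to 160, with 2 of 4 below 0 and a median log2 fold change of −0.01. Neutrophil markers, which are dominated by S100a8, summed to 76770 to 89241 against 94986 to 101811, but 2 of 7 were below 0 and their median log2 fold change was 0.58. Their part in the members' values was not tested. On day 3 of ruxolitinib, when no member was called, B lineage markers were at 255 to 385 against 626 to 642, with 7 of 7 below 0 and 1 called. On day 7, when Mavs and Oasl1 did not overlap between groups, they were at 407 to 450 against 627 to 633, with 6 of 7 below 0, a median log2 fold change of −0.88 and 0 called. Their part in those values was not tested.

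The members were also compared with each other over the 33 mice, on log2 values, as a description. Oas2 and Zbp1 had the highest correlation of the 28 pairs (Pearson's r = 0.669), which was 0.446 over the 30 mice without ruxolitinib day 1. Oas3 and Oasl1 gave 0.611 and 0.484, and Ifih1 and Ddx58 gave 0.558 and 0.506. Mavs and Tmem173 gave 0.461 and 0.457, a value that the ruxolitinib mice of day 1 did not change. The lowest point of both genes is the ruxolitinib-treated mouse of day 3 with 26881 counts, in which neither was above background. All of these pairs share the lanes' depth and scaling, and counts this low limit what they show.

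**Figure D4:**
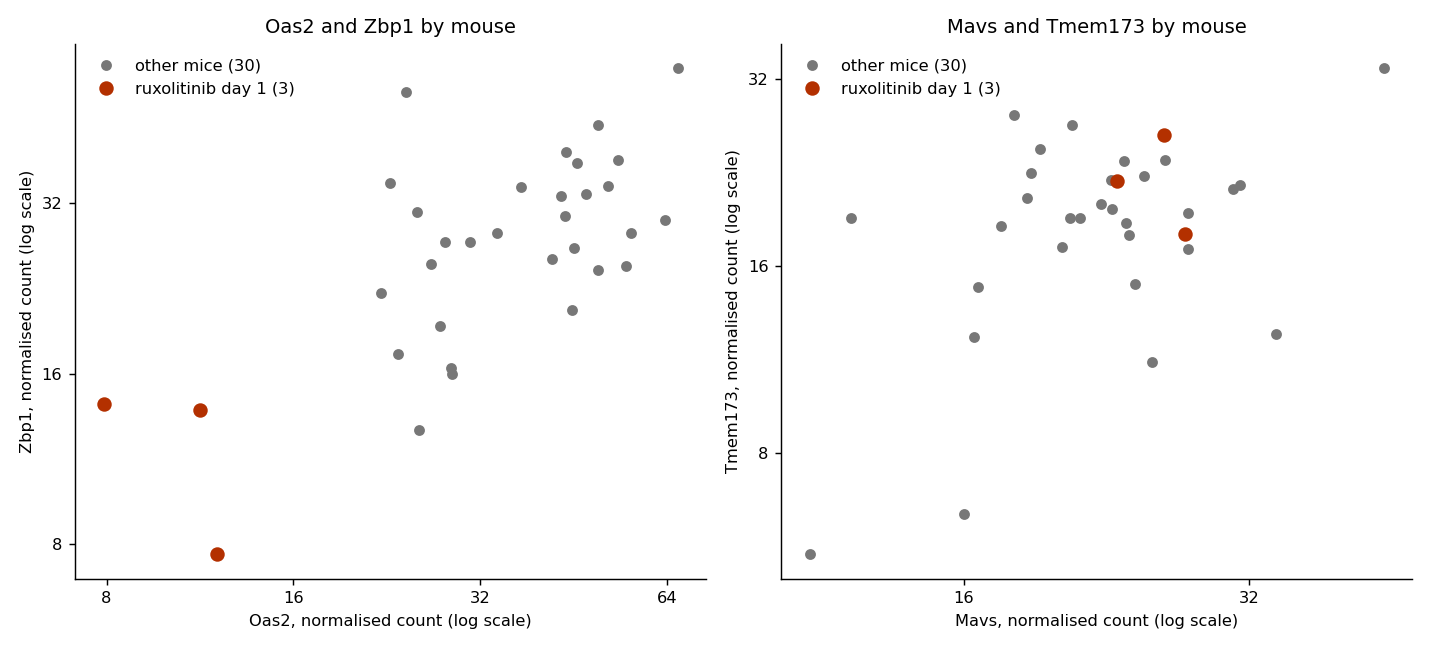
Normalised counts of Oas2 and Zbp1 (left) and of Mavs and Tmem173 (right) in each of the 33 mice, on log scales, with the 3 ruxolitinib-treated mice of day 1 in red. Those 3 mice are the lowest for Oas2 and lie within the other mice for the adaptors.

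Of 208 other genes above background in all lanes, the 5 whose levels over the 33 mice were most like the mean of Oas2, Oas3 and Oasl1 were Tap1 (r = 0.563), Cmpk2 (0.555), Ifi27 (0.489), Rsad2 (0.478) and H2-T23 (0.442). Over the 30 mice without ruxolitinib day 1 their values were 0.418, 0.00345, 0.0919, 0.0129 and 0.201, so for Cmpk2, Ifi27 and Rsad2 the likeness rests on those 3 mice. Tap1 encodes a subunit of the peptide transporter that loads MHC class I, and Cmpk2 a mitochondrial nucleotide kinase.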

How the data were processed

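The deposited values are raw barcode counts per probe, exported by the authors from the nCounter without normalisation, as the file contents show. The authors' later normalisation with nCounter Advanced Analysis is not in these counts, and it can differ from the scaling used here. Scale factors came from 11 of 20 housekeeping probes (their geometric mean), those detected in all lanes, with detection set per lane at 2 SD over the mean of 8 negative probes. Genes detected in 2 or more lanes (655 of 750) entered 1 edgeR model with a mean per group (13 groups, 20 residual degrees of freedom; edgeR 4.0.16, R 4.3.3), each contrast had a quasi-likelihood test, and p-values were adjusted by Benjamini-Hochberg over all genes tested (threshold 0.05). The coefficient of biological variation was 20.2%. Standard errors and 95% intervals are of the log2 fold change. The labels name separate mice but do not say whether they share a litter or cage, and p-values measure the spread between these mice.

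The members and the gene and marker lists were chosen with earlier results of these data known. Named genes were all members, at most 5 called genes per pathway list by smallest adjusted p-value, and the 5 genes most correlated with the mean z score of log2(normalised count + 1) of Oas2, Oas3 and Oasl1. Names of 7 members matched RefSeq by symbol and Tmem173 by synonym (Sting1). The alternatives were scaling by TMM, total count or all 20 housekeeping probes, DESeq2 1.42.0, limma 3.58.1 on log2(normalised count + 1) with and without background subtraction, no filter, a mean count of at least 20 (396 genes), a fit limited to the groups compared, a replicate block, pooled vehicles, untreated controls, lanes under 30000 counts left out, and each mouse left out in turn. The test was checked on simulated counts. Panel names differ between sources: the methods name a PanCancer immune panel and the series text an immunology panel. The labels give doses in mg/ml and the methods the same figures per kg of body weight. A run header reads Day 2 where the labels of its mice give day 3, and day 3 was used.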

Additional observations from a re-analysis of the deposited data

Results flagged for a closer look

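The differences between 2 effects that stood out for a member are 4, and all 4 contain the ruxolitinib values of day 1 that were known when the members were chosen, so they are given as values only and restate that choice. The change of Oas2 on day 1 was higher with venetoclax than with ruxolitinib by 2.05 ± 0.44 on the log2 scale (SE). The change after ruxolitinib was higher in the mean of days 3 and 7 than on day 1 by 1.95 ± 0.39 for Oas2, by 1.49 ± 0.42 for Oas3 (0.70 with untreated mice as the control) and by 1.36 ± 0.37 for Ifih1. No group held 4 or more mice, so single mice were not screened within groups.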

How the results depend on the processing

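In 11 of the 14 comparisons no member was called, and this held in all 236 alternative fits of those comparisons. On day 1 of ruxolitinib the 5 called members became 1 with limma, 1 with limma after background subtraction and 3 with untreated mice as control, and 1 to 5 when each mouse was left out. Total count scaling gave 4, without Oas3 (log2 fold change −1.23), and the mean count filter, which left out Oasl1, gave 4. Over all 655 genes, 18 were called in the main fit, 12 with total count scaling, 5 with limma and 4 after background subtraction. With untreated mice 14 were called, and with only the groups compared 77. The mean count filter called 16 of 396. For the drug difference of day 1, the 1 called member became 2 with TMM scaling and 0 with total count scaling, limma or limma after background subtraction. It became 4 with pooled vehicles, untreated mice as control or only the groups compared. For the mean of days 3 and 7 minus day 1 of ruxolitinib, the 3 called members became 5 with TMM scaling. They became 1 with total count scaling, limma or only the groups compared, and 0 with limma after background subtraction. Without replicate 2 of the drug on day 7, 1 member was called, beside 13 of all 655 genes. Without single mice the value of Oas2 ran from 1.78 to 2.10, Oas3 from 1.24 to 1.66 and Ifih1 from 1.12 to 1.63. Of the pathway lists, the 8 calls on day 1 of ruxolitinib became 4 with total count scaling or limma. They became 3 with limma after background subtraction and 14 with only the groups compared. Their number without single mice is not given, because leaving out a vehicle-treated mouse leaves 1 in its group. Over all 655 genes, the drug difference called 11 in the main fit, 10 with TMM, 8 with total count scaling and 1 with limma. It called 0 after background subtraction, 65 with pooled vehicles or untreated mice and 61 with only the groups compared. The later days minus day 1 called 16, then 17 with TMM, 8 with total count scaling and 5 with limma. It called 3 after background subtraction and 13 with only the groups compared. The cause of these shifts was not tested.

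Small values of 6 members that were not called changed sign. Oas2 on day 1 of venetoclax (−0.06) became 0.0084 with the replicate block, 0.075 with pooled vehicles and 0.17 with untreated mice as control, and ranged from −0.47 to 0.25 without single mice. Oas3 on day 7 of venetoclax (−0.10) became 0.027 with the replicate block, 0.28 with pooled vehicles and 0.19 with untreated mice, and ranged from −0.72 to 0.40. Oasl1 on that day (0.39) became −0.57 with untreated mice and ranged from −0.31 to 1.06. Ddx58 on day 3 of ruxolitinib (0.13) became −0.15 with untreated mice and ranged from −0.011 to 0.35. Zbp1 on day 7 of ruxolitinib (−0.32) became 0.088 with limma and 0.20 after background subtraction, and ranged from −0.56 to 0.52. Tmem173 on day 1 of ruxolitinib (−0.09) became 0.028 with total count scaling, 0.014 with pooled vehicles and 0.40 with untreated mice, and ranged from −0.23 to 0.036.

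Replicate numbers are shared between groups but the mice differ, and same-numbered mice had correlations of −0.349 to 0.303, so the numbers do not pair them. With the replicate block, 5 members were called on day 1 of ruxolitinib, 1 in the drug difference of day 1 and 2 in the later days minus day 1. Of all 655 genes, 15, 14 and 14 were called in those fits. Total count scaling moved the median of all genes on day 1 of ruxolitinib from 0.13 to 0.25, the other scalings by less than 0.1, and the largest shift in any comparison was 0.257. Of the 5 genes most like the OAS members, 5 were shared under TMM scaling and 1 with Spearman's correlation. Oasl1 was not above background in 8 of 33 lanes, the most of any member.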
